A study of Mus musculus with 8 samples.

Results

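A group of 10 matrix proteoglycan genes was followed in mouse brown fat: Vcan, Hspg2, Cspg4, Bgn, Dcn, Lum, Prelp, Fmod, Ogn and Aspn. They are 10 of the 54532 genes in the count table, and 9 of them passed the filter on low counts that 13756 genes passed. The group was chosen by the measured value of Vcan, which was at least 4-fold higher in the libraries labelled KO than in the WT libraries, and the other 9 genes were added as its relatives. The difference of Vcan is therefore a description without a test. RNA of interscapular brown adipose tissue was sequenced from 7-month-old male mice on normal chow after 24 h at 4 °C. KO mice (n = 4) carried the floxed Pparg allele (Pparg-flox) and Myl1-Cre, while WT mice (n = 4) carried Pparg-flox without Cre. The study set out to remove PPARγ, the central transcription factor of fat cell formation, from fat progenitors that express Myl1 and their descendants.

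Myl1 encodes a myosin light chain of fast skeletal muscle, so the driver may also act outside fat progenitors, and no sample carried Cre without the floxed allele. Pparg RNA was 279, 267, 269 and 320 CPM (counts scaled to library size) in the libraries labelled KO and 201, 200, 186 and 202 CPM in WT. The groups did not overlap, and Pparg was higher in the libraries labelled KO (log2 fold change 0.52 ± 0.09 SE, adjusted p = 0.0328 in edgeR's quasi-likelihood test with Benjamini-Hochberg adjustment over all tested genes). With any 1 of the 8 libraries left out the log2 fold change was 0.46 to 0.55 and the edgeR adjusted p 0.0505 to 0.119, past the threshold in none, and with a skeletal muscle marker score as covariate the adjusted p was 0.0565. The direction goes against the label, and a count over the whole gene does not show whether the floxed part was removed, so the group is called by its label throughout. Myl1 itself was 235 to 492 CPM in the libraries labelled KO and 303 to 442 CPM in WT, which overlap. Libraries held 12226608 to 16977010 counts in the KO group and 12407466 to 19268945 in WT. In these libraries 3 counts, the limit that a count of 0 allows, correspond to 0.156 to 0.245 CPM, which covers counting error only. In bulk tissue, fewer cells of a type and less RNA per cell cannot be told apart.

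Proteoglycans are core proteins that carry long sulphated sugar chains and fill the space between cells. Versican, encoded by Vcan, is a large chondroitin sulphate proteoglycan that binds hyaluronan and is typical of provisional, remodelling matrix. The small leucine-rich members sit on collagen fibrils and tune how they assemble, and some of them bind growth factors. Perlecan, encoded by Hspg2, is the heparan sulphate proteoglycan of basement membranes, which surround every fat cell and capillary.

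Among the members that passed the filter on low counts, the promoters of the pair with the largest differences, Vcan (higher in the libraries labelled KO) and Prelp (lower), are shown as the 250 bases before the RefSeq transcription start, on build GRCm38.p6. Both genes lie on the minus strand, and the windows are chr13:89742513-89742762 for Vcan and chr1:133921402-133921651 for Prelp. Capitals mark the motifs found on either strand: GC boxes (GGGCGG) and CCAAT boxes.
Vcan: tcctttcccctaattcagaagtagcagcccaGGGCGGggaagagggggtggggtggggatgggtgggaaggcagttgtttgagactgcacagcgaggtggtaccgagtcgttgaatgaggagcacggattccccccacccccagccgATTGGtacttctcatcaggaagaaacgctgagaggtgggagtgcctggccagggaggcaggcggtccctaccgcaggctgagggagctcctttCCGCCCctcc
Prelp: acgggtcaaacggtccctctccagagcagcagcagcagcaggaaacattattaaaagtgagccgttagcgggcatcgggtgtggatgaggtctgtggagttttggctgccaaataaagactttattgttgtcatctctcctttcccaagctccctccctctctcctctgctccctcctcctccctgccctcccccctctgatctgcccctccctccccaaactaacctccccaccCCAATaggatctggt
Vcan has GC boxes that begin 219 and 10 bases before the start and a CCAAT box 103 bases before it, whereas Prelp has 1 CCAAT box, 15 bases before it. Motif shares were counted in 300-base windows that also take in 50 bases after the start. A GC box occurred in 35.7% of the 32851 RefSeq promoter windows and CCAAT in 37.4%, so neither is rare. In all, 8 of the 10 members matched that table by symbol, and Dcn and Lum did not. None of the 8 windows held an AP-1 site (TGANTCA, 7.81% of all windows), a nuclear receptor half-site (AGGTCA, 16.3%) or the E-box CACGTG (7.15%). The TATA box (TATAAA, 13.6%) was present in Ogn and Aspn. GC content was 61.0% in the Vcan window and 55.3% in the Prelp window, against a median of 52.7% over all windows. These matches describe letters and do not show that a factor binds.

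Vcan was the member with the largest difference and one of the scarcest. Its counts were 72, 107, 53 and 93 in the libraries labelled KO and 17, 15, 20 and 17 in WT. This is 5.69, 7.16, 3.37 and 5.59 CPM in the libraries labelled KO, against 1.27, 0.752, 1.59 and 1.42 CPM in WT. The lowest library labelled KO (KO 3) lay above the highest WT library, and the mean was 5.45 ± 1.56 CPM against 1.26 ± 0.363 CPM (SD, n = 4 each). The ratio of the means was 4.33 and the fitted log2 fold change 2.14 ± 0.30 (SE). With each library left out in turn it stayed between 1.92 and 2.31. The ratio stood just inside the 4-fold threshold, and the next highest ratio among the members was 1.43, for Lum. The gene spans chr13:89655312-89742509 on GRCm38 and has 8 coding transcripts of 294 to 12427 bases in GENCODE M21. Gene counts do not separate the isoforms of versican, which differ in the part that carries the sugar chains.

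**Figure D1:**
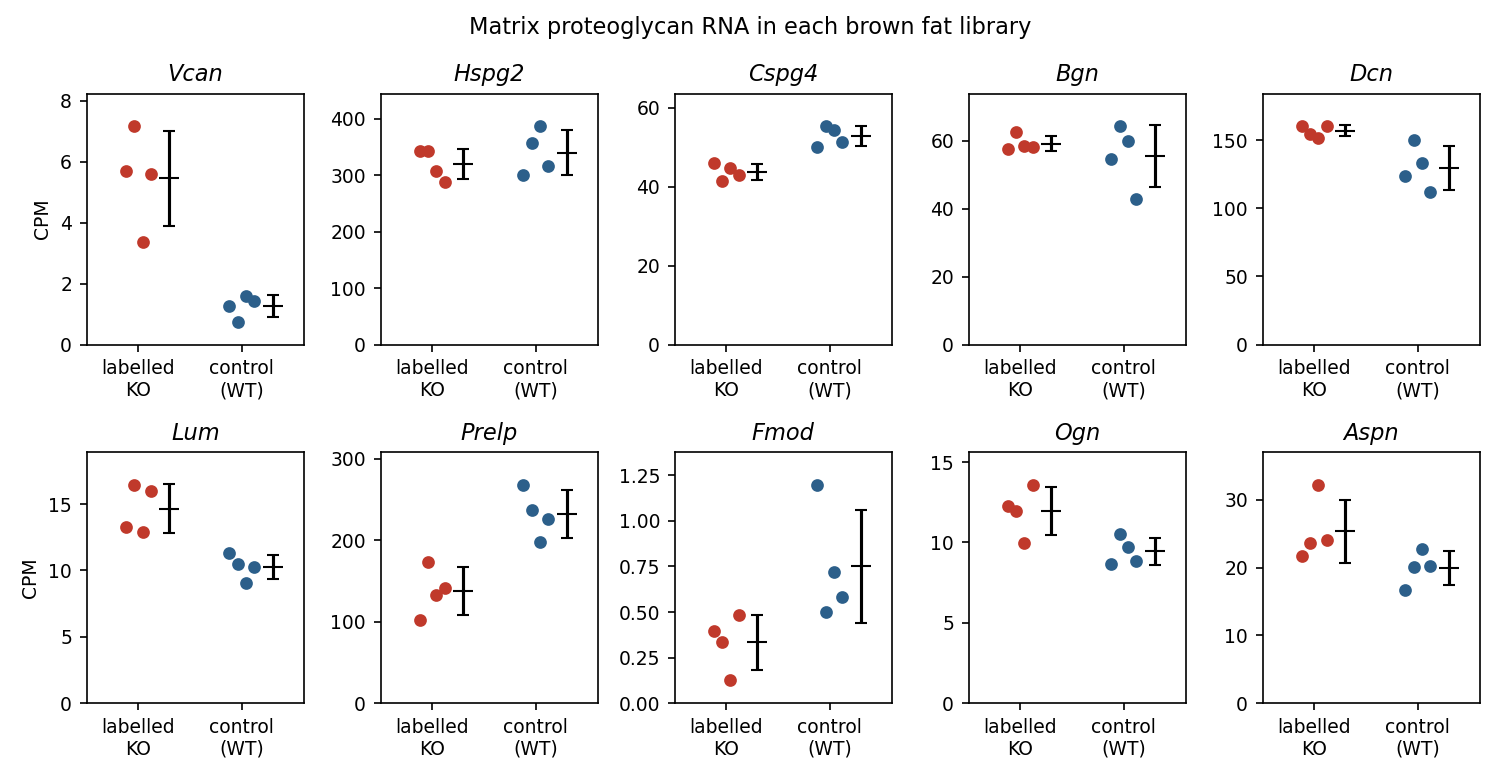
CPM (TMM-scaled) of each member in each library, with libraries labelled KO on the left and WT on the right of every panel; black marks are means ± SD (n = 4). Each y axis starts at 0 and has its own scale. The groups do not overlap for Vcan, Dcn, Lum, Prelp, Cspg4 and Fmod.

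Among the 8 other members that were tested, none passed the adjusted threshold of 0.05 in edgeR, which 0.385% of all tested genes did. At an unadjusted p below 0.05 there were 6 of 8, namely Lum, Dcn, Ogn and Aspn on the higher side and Prelp and Cspg4 on the lower side, against 15.2% of all tested genes. With a skeletal muscle marker score as covariate, 3 of the 8 were below it, as were 1260 of all tested genes in place of 2088, and with 1 library left out the members below it numbered 3 (without WT 4) to 6. DESeq2 called 2 of the 8, Lum and Prelp, beside 362 of the 15087 genes it tested. Limma-voom called none of the 8, beside 53 of 13756 genes. The libraries of the groups did not overlap for 4 of the 8 (Prelp, Lum, Dcn and Cspg4), against 8.1% of all tested genes. The members were named with results of these data known and the unadjusted share over all genes is itself raised, so these counts describe the 8 genes and no more. Their median log2 fold change was 0.18, beside 0.00 over all 13756 genes.

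**Figure D2:**
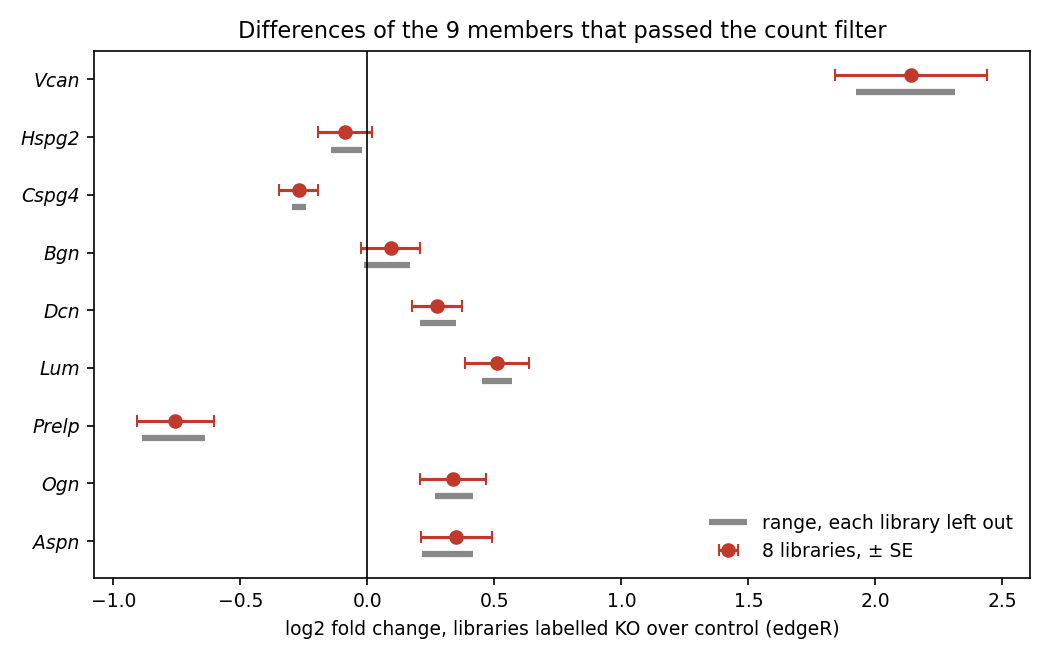
Log2 fold change of each tested member, libraries labelled KO over WT, from edgeR with its standard error (red points and bars); grey bars give the range when each of the 8 libraries was left out in turn. Vcan stands at 2.14, Prelp at -0.76, and the other 7 members between -0.27 and 0.51.

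Prelp, which encodes a leucine-rich protein that links basement membranes to collagen, was, among the members that passed the filter on low counts, the lowest in the libraries labelled KO relative to WT. It measured 103, 174, 132 and 141 CPM in the libraries labelled KO and 268, 237, 198 and 226 CPM in WT. All 4 libraries labelled KO lay below all 4 WT libraries. Means were 137 ± 29.2 CPM and 232 ± 29.2 CPM (SD, n = 4 each), a log2 fold change of -0.76 ± 0.15 (SE) that missed the edgeR threshold (adjusted p = 0.0741). DESeq2 placed it past the threshold (adjusted p = 0.000855), as did edgeR without the filter on low counts (adjusted p = 0.00703) and edgeR without KO 2 (adjusted p = 0.029). With a skeletal muscle marker score as covariate the log2 fold change was -0.68, and over all alternatives apart from left-out libraries the adjusted p reached 0.378. An antisense transcript, Gm15851, shares 350 bases (9.68%) of the Prelp exons. Whether reads were counted by strand is not stated, so reads of the pair cannot be told apart.

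Decorin and lumican are collagen-binding proteins that limit fibril thickness, and decorin also binds transforming growth factor beta. Dcn measured 160, 155, 152 and 160 CPM in the libraries labelled KO and 124, 150, 133 and 112 CPM in WT. Lum measured 13.3, 16.5, 12.9 and 16.0 CPM in the libraries labelled KO and 11.3, 10.5, 9.09 and 10.3 CPM in WT. Neither gene's groups overlapped, although Dcn came close, with KO 3 at 152 and WT 2 at 150 CPM. The log2 fold changes were 0.27 ± 0.10 for Dcn (adjusted p = 0.233) and 0.51 ± 0.13 for Lum (adjusted p = 0.124), both short of the edgeR threshold. DESeq2 gave Lum an adjusted p of 0.0458. The genes lie side by side on chromosome 10, Dcn at chr10:97479609-97518143 and Lum at chr10:97565128-97572703, and Kera, the leucine-rich gene of cornea on the far side of Lum, had no count in any library.

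Osteoglycin (Ogn) and asporin (Aspn) are neighbouring small leucine-rich genes on chromosome 13 that are known from bone, tendon and fibrous tissue. Ogn measured 12.2, 11.98, 9.99 and 13.6 CPM in the libraries labelled KO and 8.68, 10.5, 9.72 and 8.84 CPM in WT. Aspn measured 21.6, 23.6, 32.2 and 24.0 CPM in the libraries labelled KO and 16.6, 20.1, 22.7 and 20.2 CPM in WT. The groups overlapped for both genes, at KO 3 for Ogn and at KO 1 for Aspn. Log2 fold changes were 0.34 ± 0.13 (adjusted p = 0.266) for Ogn and 0.35 ± 0.14 (adjusted p = 0.275) for Aspn. The same stretch of chromosome 13 holds Ecm2, a leucine-rich matrix gene 11654 bases from Aspn, which measured 14.3, 14.1, 14.0 and 12.3 CPM in the libraries labelled KO and 7.11, 7.41, 10.1 and 8.17 CPM in WT. Its groups were separate, and its log2 fold change of 0.74 ± 0.14 fell just short of the edgeR threshold (adjusted p = 0.0519). Ecm2 passed in DESeq2 (adjusted p = 0.00124), in limma-voom (adjusted p = 0.0448), with edgeR's robust dispersion (adjusted p = 0.0442), without the low-count filter (adjusted p = 0.017) and without WT 3 (adjusted p = 0.0235). With the skeletal muscle score as covariate its log2 fold change was 0.64 and the edgeR adjusted p 0.378. Omd, the osteomodulin gene between Aspn and Ogn, had 8 counts in all libraries labelled KO and 11 in all WT libraries, and Nol8 on the far side had a log2 fold change of 0.07 (adjusted p = 0.889).

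Biglycan (Bgn), which like decorin carries chondroitin or dermatan sulphate and can also act as an inflammatory signal, had overlapping groups. It measured 57.5, 62.6, 58.5 and 58.3 CPM in the libraries labelled KO and 54.8, 64.3, 59.9 and 43.0 CPM in WT. WT 4 stood lowest, and the log2 fold change of 0.09 ± 0.11 (adjusted p = 0.743) became -0.01 without WT 4. Fmod, the collagen-binding fibromodulin of tendon and cartilage, was nearly undetected and did not pass the filter. It had 5, 5, 2 and 8 counts in the libraries labelled KO and 16, 10, 9 and 7 in WT, or 20 and 42 in sum. In CPM these were 0.127 to 0.481 in the libraries labelled KO and 0.501 to 1.20 in WT, which do not overlap, but the 95% Poisson intervals of single libraries do (0.208 to 0.948 CPM in KO 4 and 0.24 to 0.921 CPM in WT 2).

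Perlecan (Hspg2) and the NG2 proteoglycan (Cspg4), a transmembrane protein of pericytes and progenitor cells, are the vascular and basement membrane members. Hspg2 was the most abundant member by CPM, with 342, 343, 307 and 287 CPM in the libraries labelled KO and 300, 357, 386 and 315 CPM in WT. Its groups overlapped, with a log2 fold change of -0.09 ± 0.11 (adjusted p = 0.738). That value ran from -0.14 to -0.02 with 1 library left out and was -0.23 with the muscle score as covariate, never past the threshold. Cspg4 measured 46.0, 41.4, 44.9 and 43.0 CPM in the libraries labelled KO and 50.1, 55.3, 54.4 and 51.4 CPM in WT. The Cspg4 groups did not overlap, its spread within groups was small, and its log2 fold change of -0.27 ± 0.08 did not pass the edgeR threshold (adjusted p = 0.16).

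The order of the members by level per exon length differed from the order by difference. In CPM per kilobase of exon, Prelp was highest at 38.0 ± 8.08 in the libraries labelled KO and 64.2 ± 8.07 in WT (SD, n = 4 each). Dcn followed in the libraries labelled KO at 26.8 ± 0.696 against 22.2 ± 2.76 in WT, and Hspg2 had 22.3 ± 1.91 in the libraries labelled KO against 23.7 ± 2.75 in WT. In WT the ranges of Hspg2 (20.97 to 27.0) and Dcn (19.1 to 25.7) overlapped, so these neighbours in the order did not differ beyond their spread. Bgn and Aspn came next (9.71 and 10.8 in the libraries labelled KO, 9.10 and 8.46 in WT), then Cspg4, Lum and Ogn, all between 3.67 and 5.99 in either group. Vcan was at 0.377 ± 0.108 in the libraries labelled KO and 0.0871 ± 0.0251 in WT, so even in the group where it was higher it lay below every other member except Fmod (0.101 in the libraries labelled KO and 0.227 in WT). Dividing by the longest transcript instead of all exons put Bgn at 22.2 in the libraries labelled KO and 20.8 in WT and left the lowest members where they were.

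**Figure D3:**
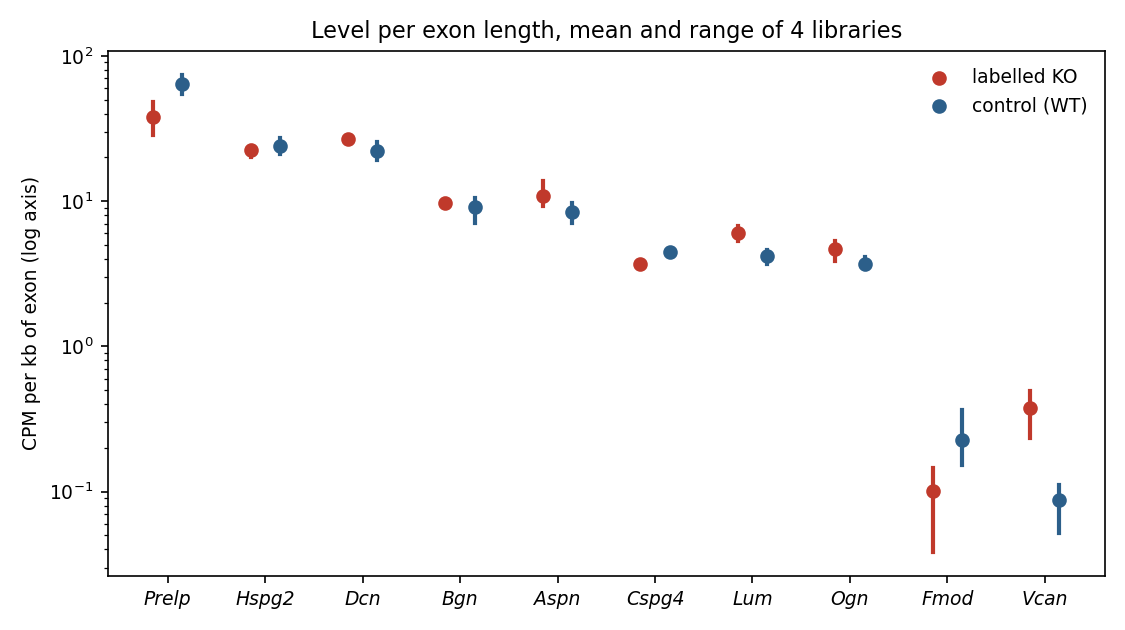
CPM per kilobase of union exon length for each member on a log axis; points are means and vertical lines the range of 4 libraries, with libraries labelled KO (red) left of WT (blue). Prelp, Hspg2 and Dcn are the highest members in both groups, and Fmod and Vcan the lowest.

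The make-up of the small leucine-rich group is given in CPM not divided by exon length, and its difference between the groups was not tested. Prelp accounted for 27.9 to 39.2% of the summed CPM of the 7 small leucine-rich members in the libraries labelled KO and for 45.7 to 55.4% in WT, while Dcn accounted for 34.9 to 43.5% in the libraries labelled KO and 25.5 to 30.7% in WT. The ratio of Dcn to Prelp CPM was 1.18 ± 0.277 in the libraries labelled KO and 0.565 ± 0.103 in WT (SD, n = 4 each). The 6 without Prelp summed to 265 to 272 CPM in the libraries labelled KO and 195 to 256 CPM in WT. All 10 members summed to 749.5 to 834.6 CPM in the libraries labelled KO and 788.5 to 906.4 CPM in WT, which overlap. Vcan made up 0.448 to 0.858% of that sum in the libraries labelled KO and 0.0829 to 0.182% in WT.

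Around the members, 206 related genes in 6 lists were examined, of which 151 passed the filter and none passed the adjusted threshold in edgeR. At an unadjusted p below 0.05 there were 28, with 19 higher and 9 lower in the libraries labelled KO, which is 18.5% against 15.2% of all tested genes. DESeq2 called 7 related genes, beside 362 of the 15087 genes it tested. The median log2 fold change was 0.03 over the 151 genes. Among 25 tested core proteins of other proteoglycans the median was 0.19, and 5 were higher and 2 lower at that unadjusted threshold (28% in all). The most abundant of them were Nrp1, a semaphorin and VEGF co-receptor, at 109 ± 5.25 CPM in the libraries labelled KO and 132 ± 4.14 CPM in WT (log2 fold change -0.27, adjusted p = 0.152), and the heparan sulphate proteoglycan Sdc4 at 122 ± 6.47 CPM in the libraries labelled KO and 103 ± 11.4 CPM in WT (0.25, adjusted p = 0.263). The closest relatives of versican were scarce or variable. Aggrecan (Acan) had 3 counts in the libraries labelled KO and 0 in WT, and brevican (Bcan) had 6 in the libraries labelled KO and 1 in WT. Neurocan (Ncan) averaged 17.5 ± 8.56 CPM in the libraries labelled KO and 23.1 ± 19.5 CPM in WT (adjusted p = 0.757). These 3 genes were picked for their kinship with Vcan after their values were seen.

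Genes that build the sugar chains had a median log2 fold change of -0.05 over 43 tested genes, with 4 higher and 4 lower at unadjusted p below 0.05. That is 18.6% of the list, against 15.2% of all tested genes. Ugp2, which makes the UDP-glucose that feeds chain synthesis and glycogen, averaged 580 ± 137 CPM in the libraries labelled KO and 374 ± 79.99 CPM in WT, with overlapping libraries and an adjusted p of 0.18. B3gat3, which completes the linkage to the core protein, had a log2 fold change of -0.06 (adjusted p = 0.78). Of 14 genes that break chains down, 2 were higher at that threshold and none lower, or 14.3%, near the share over all genes. The lysosomal enzyme gene Hexa, among the most abundant, had a log2 fold change of 0.10 (adjusted p = 0.716).

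Hyaluronan is the chain to which versican binds. Of 27 listed genes 13 were tested, with 1 higher and 1 lower at unadjusted p below 0.05 and a median of -0.01. That is 15.4% of the 13, against 15.2% of all tested genes. The most abundant were Itih5, which belongs to a family whose members attach to hyaluronan, and Stab1, a scavenger receptor for it, with log2 fold changes of -0.17 (adjusted p = 0.508) and 0.16 (adjusted p = 0.553). The hyaluronan synthases were scarce, Has1 and Has2 with 0 and 3 counts in the libraries labelled KO and 3 and 7 in WT, and Has3 with a mean of 0.917 CPM in the libraries labelled KO and 0.61 CPM in WT (adjusted p = 0.512). Hapln1, which encodes a link protein that locks versican onto hyaluronan and neighbours Vcan at a distance of 43660 bases, had 3 counts in the libraries labelled KO and 0 in WT. Xrcc4, a DNA repair gene on the other side of Vcan, had a log2 fold change of 0.16 (adjusted p = 0.628).

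Of 19 tested proteases and inhibitors, 2 were higher and none lower at unadjusted p below 0.05, with a median of 0.09. That is 10.5% of the list, against 15.2% of all tested genes. Timp3 and Timp4, inhibitors of matrix metalloproteinases, had log2 fold changes of 0.33 (adjusted p = 0.311) and 0.30 (adjusted p = 0.615). Adamts1, Adamts5 and Adamts9, versican-cleaving enzymes named here for that role after their values were seen, had log2 fold changes of 0.01, 0.09 and 0.04 (adjusted p between 0.83 and 0.984). They do not stand for all Adamts genes of the list. Adamts20 had a log2 fold change of 1.06 (edgeR adjusted p = 0.243), Adamts15 of 0.12 (adjusted p = 0.907) and Adamts4 of -0.59 (adjusted p = 0.43). Adamts20 was scarce, at a mean of 1.11 CPM in the libraries labelled KO and 0.531 CPM in WT. Among 39 tested collagens, receptors and growth factor partners, 5 were higher and 2 lower at that threshold (17.9%), with a median of 0.12. Col4a1 and Col4a2, the network collagens of the basement membrane that holds perlecan, had log2 fold changes of -0.06 (adjusted p = 0.787) and -0.12 (adjusted p = 0.542).

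**Figure D4:**
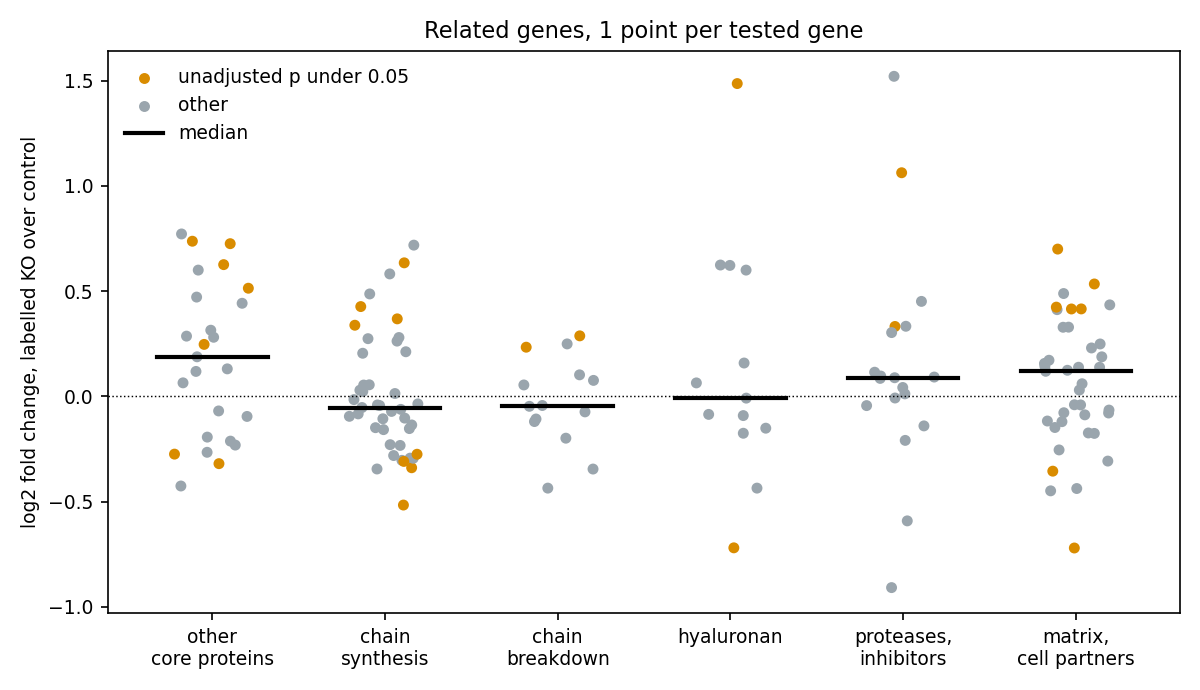
Log2 fold change, libraries labelled KO over WT, of every tested gene in the 6 related lists; orange points have an unadjusted p below 0.05, grey points do not, and black lines are the medians. The medians lie between -0.05 and 0.19, and no gene passed the adjusted threshold in edgeR.

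The 5 genes whose profile over the 8 libraries was most like that of Vcan, by the root mean square difference of centred log2 CPM among 11966 genes, were Pon1 (0.496), Orm2 (0.502), Ucp2 (0.508), Kcng4 (0.542) and Cyp1b1 (0.547). The measure was 1.07 for a flat profile. Because Vcan was chosen for its difference, these genes resemble it mainly in that difference and their values are given without a test. Pon1, which encodes paraoxonase, averaged 24.6 ± 2.09 CPM in the libraries labelled KO and 9.05 ± 2.81 CPM in WT, and Ucp2, a mitochondrial carrier, averaged 149 ± 45.96 CPM in the libraries labelled KO and 46.3 ± 4.07 CPM in WT. In the libraries labelled KO, Cyp1b1, a cytochrome P450, averaged 24.6 ± 5.35 CPM, against 4.98 ± 0.682 CPM in WT. Kcng4, a potassium channel subunit, averaged 8.30 ± 1.28 CPM in the libraries labelled KO and 3.27 ± 0.584 CPM in WT. Orm2, an acute phase protein whose reads may be split with its paralogs, averaged 3.13 ± 0.532 CPM in the libraries labelled KO and 0.929 ± 0.548 CPM in WT (SD, n = 4 each). Among the members Lum was nearest to Vcan, at rank 209, and Prelp farthest, at rank 11862.

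Marker scores of 8 cell types are given beside these genes. The part of these cell types in the results was not tested. A fit with the muscle score as covariate was run. That score was higher on average in the libraries labelled KO, so the fit cannot fully separate muscle content from the label. Scores are mean log2 CPM over a list, compared by an exact two-sided permutation test whose smallest possible p is 0.0286, with adjustment over the 8 lists. Skeletal muscle markers scored 9.30 ± 0.428 in the libraries labelled KO and 8.59 ± 0.554 in WT (exact p = 0.0857, adjusted 0.229), with all 22 of 22 at a positive log2 fold change and summed levels of 12862 to 23647 CPM in the libraries labelled KO and 6674 to 18002 CPM in WT. Macrophage markers differed by 0.51 (exact p = 0.0571, adjusted 0.229), positive in 13 of 13 tested genes, and summed to 115 to 199.7 CPM in the libraries labelled KO and 108 to 158 CPM in WT. Fat cell markers differed by -0.28 (exact p = 0.0571, adjusted 0.229), with 10 of 11 negative, and summed to 25414 to 33267 CPM in the libraries labelled KO and 32447 to 38592 CPM in WT. Schwann cell markers differed by 0.32 (exact p = 0.143) and summed to 175 to 205 CPM in the libraries labelled KO and 134 to 172 CPM in WT. Most of that sum was S100b, at 122 to 143 CPM in the libraries labelled KO and 91.3 to 132 CPM in WT. No list passed the adjusted threshold.

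Fibroblasts and fat progenitors are the usual source of versican, decorin and lumican, and their 22 markers scored 3.73 ± 0.135 in the libraries labelled KO and 3.64 ± 0.289 in WT (exact p = 0.543). They summed to 1377 to 1723 CPM in the libraries labelled KO and 1115 to 1886 CPM in WT. Most of that sum was Gsn, at 935 to 1278 CPM in the libraries labelled KO and 721 to 1385 CPM in WT. The defining progenitor marker Pdgfra averaged 9.28 ± 1.78 CPM in the libraries labelled KO and 8.29 ± 1.03 CPM in WT (adjusted p = 0.681). Efemp1, an extracellular matrix glycoprotein of that list, rose, with 13.6 ± 1.35 CPM in the libraries labelled KO and 6.50 ± 1.40 CPM in WT (log2 fold change 1.05 ± 0.16, adjusted p = 0.0183), and was the only marker on any of the 8 lists to pass in edgeR. The Efemp1 call was lost without KO 1 (adjusted p = 0.0781), without KO 3 (adjusted p = 0.0793), without WT 4 (adjusted p = 0.0554) and with the muscle score as covariate (adjusted p = 0.16), while its log2 fold change stayed between 0.96 and 1.19. Mural and endothelial scores, which cover the cells that express Cspg4 and much of Hspg2, differed by 0.09 (exact p = 0.657) and 0.05 (exact p = 0.743). Mural markers summed to 1023 to 1423 CPM in the libraries labelled KO and 744.2 to 1242 CPM in WT, and endothelial markers to 1108 to 1245 CPM in the libraries labelled KO and 938 to 1499.7 CPM in WT. In the mural sum, Des alone was 476 to 823 CPM in the libraries labelled KO and 272 to 621 CPM in WT. Tendon and cartilage markers, at 7.21 to 18.2 CPM in the libraries labelled KO and 5.92 to 14.6 CPM in WT, were mostly too low to test (4 of 14), and Kera was at 0 throughout. The defining brown fat marker, the uncoupling protein gene Ucp1, averaged 9303 ± 1473 CPM in the libraries labelled KO and 11441 ± 1272 CPM in WT. The Ucp1 groups overlapped, and the log2 fold change of -0.30 did not pass the edgeR threshold (adjusted p = 0.344). With the muscle score as covariate the log2 fold change of Vcan was 2.29.

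**Figure D5:**
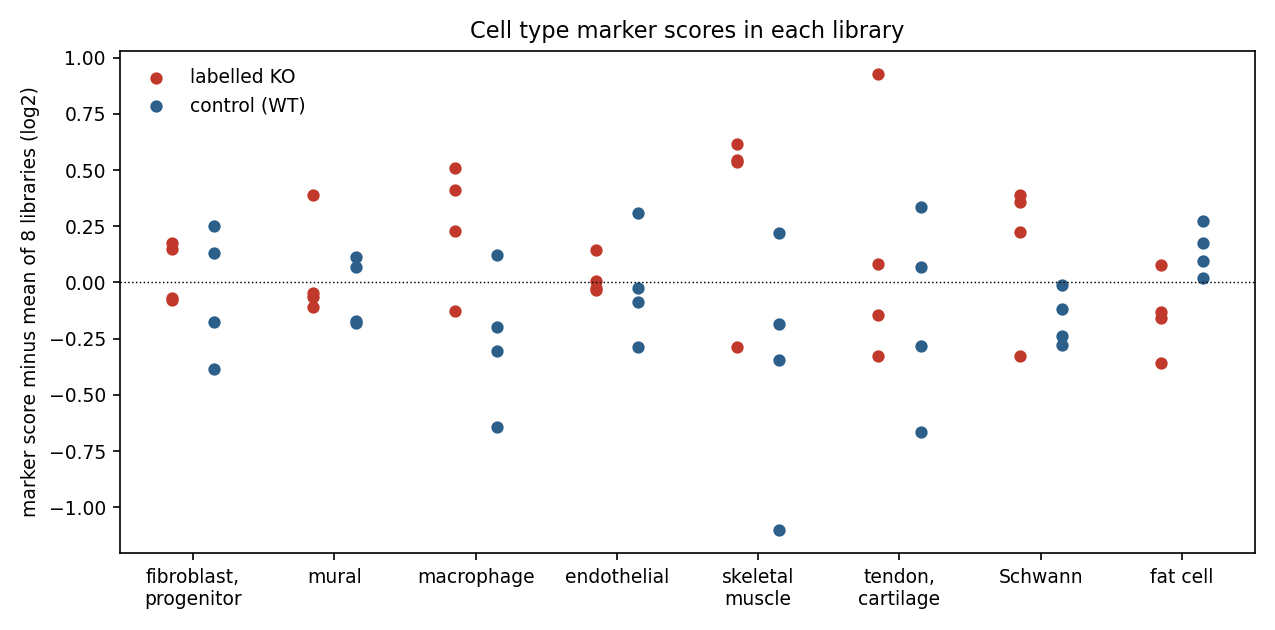
Marker score (mean log2 CPM) of 8 cell type lists in each library, minus the mean of the 8 libraries, with libraries labelled KO (red) left of WT (blue). For skeletal muscle, 3 libraries labelled KO lie above every WT library, while the fibroblast and endothelial scores overlap.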

How the data were processed

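Gene counts as deposited by the authors were used without change. They are whole numbers, and per the submitters' processing notes they were made with FastQC, Trimmomatic, HISAT2, SAMtools and featureCounts of Subread on GRCm38. Sources used here give no versions, annotation release or strand setting. Per the labels' protocols, libraries were stranded poly(A) mRNA libraries. Gene IDs matched GENCODE M21 for 99.8%. Counts were fitted in edgeR 4.0.16 (R 4.3.3) with TMM scaling, filterByExpr, the quasi-likelihood test and Benjamini-Hochberg adjustment over 13756 genes, with a threshold of 0.05. CPM are TMM-scaled, and log2 CPM used a prior count of 2. Standard errors were derived from each log2 fold change and its F statistic. Alternatives used DESeq2 1.42.0 and limma 3.58.1 and other scalings and filters. The fit was tested on simulated data. Replicates are separate mice, and no 2 libraries agree within sampling noise (10.4 to 79.0 in units of chi-square over its degrees of freedom). In all, 53 genes were called, 40 higher and 13 lower. Members and lists were chosen with earlier results of these data known. Named genes are the members, Pparg, Myl1, called or else the 2 most abundant genes of each related list, the 5 profiles nearest to Vcan, gene neighbours and defining markers. Others were chosen after their values were seen, which is marked in the text except for Has1, Has2, Has3, Efemp1, Gsn, S100b and Des. Of the genes picked by the naming rule, 1 is left out here.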

Additional observations from a re-analysis of the deposited data

Results flagged for a closer look

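Of 92 sets of 4 libraries examined, 9 held 1 library far from the other 3 of its group; chance alone gives about 1 in 20. Ecm2 was 12.3 CPM in KO 4, against 14.0 to 14.3 in the other libraries of that group. In WT 3, Xrcc4 was 5.26 CPM (others 6.51 to 6.61), Hexa 41.0 CPM (53.2 to 55.5), Pon1 13.2 CPM (7.26 to 8.12) and Pparg 186 CPM (199.7 to 202). In WT 2, Nrp1 was 138 CPM (others 129.8 to 131) and Col4a2 533 CPM (467 to 476). The mural marker score was 5.58 in KO 1 (others 5.08 to 5.14), and the skeletal muscle score was 8.66 in KO 4 (others 9.48 to 9.56). None of the 10 members had such a library.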

How the results depend on the processing

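Every tested member apart from Bgn kept its direction under all 19 alternatives; leaving out 1 library gave Bgn log2 fold changes of -0.012 to 0.17. Against 53 calls over all genes, DESeq2 gave 362, no low-count filter 187, the mouse number as replicate block 155 and the muscle score covariate 24, and leaving out 1 library gave 24 to 75. Beside 0 calls among members other than Vcan, there were 2 with DESeq2, 1 without the filter, 1 with the block (Prelp, adjusted p = 0.0428 in edgeR; over its alternatives apart from left-out libraries it ran from 0.000855 in DESeq2 to 0.378 with the muscle score covariate) and 0 to 1 with 1 library left out. Beside 0 related genes called, there were 7 with DESeq2, 1 with limma-voom, 3 without the filter, 1 with robust dispersion, 3 with the block (Ecm2 among them, adjusted p = 0.0428 in edgeR) and 0 to 2 with 1 library left out. Whether mouse numbers pair the samples was not settled. Correlations of same-numbered mice were 0.02, 0.40, 0.03 and 0.17, and only the mice numbered 2 were each other's best match. Signs changed for Btg1 with total count scaling (0.025) and, with the muscle score covariate, for Nol8 (-0.18), Odf3l1 (0.22), Snx33 (-0.0011), B3gat3 (0.037) and Stab1 (-0.0070). They also changed with 1 library left out for Haus7 (-0.13 to 0.12), Nol8 (-0.066 to 0.19), Btg1 (-0.062 to 0.017), Myl1 (-0.22 to 0.12) and Col4a1 (-0.10 to 0.00056), and, in a check added after seeing the data, for the differences of the fibroblast (-0.025 to 0.19), mural (-0.030 to 0.14) and endothelial scores (-0.043 to 0.16). No called value changed sign, and the cause was not tested. Vcan and Fmod rest on few reads, so their counting error is large.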

Other observations

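The following values were chosen after they were seen and carry no explanation. Itih4, of the family whose heavy chains attach to hyaluronan, measured 4.58, 9.10, 7.32 and 2.89 CPM in the libraries labelled KO and 1.42, 2.76, 2.71 and 1.502 CPM in WT. The groups did not overlap, and the log2 fold change of 1.49 ± 0.37 missed the edgeR threshold (adjusted p = 0.124). Hapln4, a hyaluronan link protein, was lower in all 4 libraries labelled KO, at 3.19 ± 0.512 CPM against 5.26 ± 0.353 CPM in WT (adjusted p = 0.118). The syndecan gene Sdc2 averaged 15.02 ± 1.05 CPM in the libraries labelled KO and 9.08 ± 2.85 CPM in WT (adjusted p = 0.136), and Smoc2, a calcium-binding matrix protein, 19.03 ± 0.782 CPM in the libraries labelled KO and 13.3 ± 1.73 CPM in WT (adjusted p = 0.0942), without overlap in either case. Groups did not overlap for 16 of the 151 tested related genes, beside 1114 of all 13756 tested genes (8.1%).

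Spock1, which encodes the proteoglycan testican, had 4, 6, 2 and 5 counts in the libraries labelled KO and none in any WT library. Against the limit of 3 counts over the pooled WT libraries it was at least 5.47-fold higher, but it did not pass the filter on low counts, and without that filter the edgeR adjusted p was 0.0942. Among chain-building genes Chst11, a chondroitin sulphotransferase, was 36.3 ± 7.47 CPM in the libraries labelled KO and 52.0 ± 7.19 CPM in WT (adjusted p = 0.172), with no overlap.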
